A study of Chlorocebus aethiops with 24 samples.

Results

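The genes described here encode the proteins of the cytosolic ribosome and the factors that start and extend protein synthesis on it. They were chosen by name: a probe set of the array was a member where the platform annotation gives it 1 gene symbol and that symbol begins with RPL or RPS and a number, RPLP, RPSA, EIF or EEF, with the ribosomal S6 kinases left out. This gave 76 of the 11512 probe sets, of which 37 carry ribosomal protein names (34 symbols) and 39 the names of translation factors (35 symbols). Both classes hold proteins that are named after the others: RPS19BP1, which binds RPS19, is not a subunit but is counted among the 37, beside 23 probe sets of large-subunit names and 13 of small-subunit names. All 76 had a value in every animal and all were tested. Another 13 probe sets that share a member symbol with a second gene were left out.

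A ribosome is built from a small subunit, which reads the mRNA, and a large subunit, which joins the amino acids, and each subunit is an assembly of ribosomal RNA and ribosomal proteins made in matched amounts. Initiation factors (eIFs) bring the mRNA, the first tRNA and the subunits together, and elongation factors (eEFs) carry each further tRNA to the ribosome. In hippocampal neurons, protein synthesis near synapses is needed for long-lasting changes in synaptic strength. It is regulated mainly at initiation, through cap binding by eIF4E and through phosphorylation of eIF2.

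The animals were male captive-bred vervet monkeys (Chlorocebus aethiops in the labels), and the RNA came from the whole left hippocampus. FASD animals were exposed to ethanol before birth and controls to an isocaloric sucrose solution, which their mothers drank late in gestation. The methods describe mothers that preferred alcohol, which could be offered ethanol in one pregnancy and sucrose in another, so offspring of 1 mother could stand in both conditions and the labels do not name the mothers. The groups were 5 FASD animals and 6 controls killed at 2 years of age, and 5 FASD animals and 6 controls killed at 5 months, with 1 Affymetrix rhesus macaque array per animal. Control animal 6 at 5 months has 1 conflicting label, a source name that says 2 years, and was placed by its title, description and age. In whole tissue, fewer cells of a type and less RNA per cell cannot be told apart. The arrays' mean log2 expression lay between 7.899 and 7.996, and the lowest correlation between any pair of arrays was 0.972 across probe sets, which are not independent replicates.

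The ribosomal protein genes were among the brightest on the array. Of their 37 probe sets, 27 lay in the top decile of mean intensity, as did 7 of the 39 factor probe sets. The spread between animals of a group was small, as it was over the array. The median within-group SD was 0.14 on the log2 scale for ribosomal proteins and 0.13 for factors, against 0.16 over all probe sets. In the top decile it was 0.136 for ribosomal proteins, 0.094 for factors and 0.146 for the other probe sets. The widest spreads were those of RPL24 at 0.35 and RPS16 at 0.32, and the narrowest was that of EIF4E2, a cap-binding relative of eIF4E, at 0.05.

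Between FASD animals and controls, most members differed by little, as did most of the array. The alcohol difference was under 0.1 in size on the log2 scale for 28 of 37 ribosomal protein probe sets (75.7%). It was so for 32 of 39 factor probe sets (82.1%), 75.2% of all probe sets and 81.4% of others in the top decile of intensity. Averaged over both ages, the median FASD minus control difference was 0.0082 for the 37 ribosomal protein probe sets, -0.029 for the 39 factor probe sets and -0.0069 for all 11512 (log2 scale). Differences below 0 were found for 15 of 37 ribosomal protein probe sets (40.5%), 27 of 39 factor probe sets (69.2%) and 53.2% of all. Other probe sets in the top decile of intensity had a median of -0.021, with 63.4% below 0. At single ages the factor share below 0 was 64.1% at 5 months and 53.8% at 2 years, against 61% and 46.1% of all. The ribosomal protein median was -0.023 without FASD animal 2 at 5 months.

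At an unadjusted p under 0.05 by limma, 3 of 37 ribosomal protein probe sets (8.11%) and 3 of 39 factor probe sets (7.69%) were called for alcohol, where 8.44% of all probe sets were called. In each class 2 of these were lower in FASD animals and 1 was higher, and over the whole array 6.01% were called lower and 2.43% higher. None passed an adjusted p under 0.05 by limma, nor did any other probe set (0%), and the lowest adjusted p among the members was 0.579. The two-way analysis of variance named in the methods called 4 of 37 (10.8%) and 4 of 39 (10.3%) at an unadjusted p under 0.05, where it called 8.15% of all probe sets, and 0 after adjustment. Without control animal 2 at 2 years the limma counts were 7 of 37 and 8 of 39, where 14.6% of all probe sets were called.

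For age, the ribosomal proteins were shifted slightly to lower values at 2 years. The median 2 years minus 5 months difference, averaged over both exposures, was -0.046 for ribosomal proteins, with 30 of 37 probe sets below 0 (81.1%), against a median of 0.0028 and 48.5% below 0 over all probe sets. Other probe sets in the top decile of intensity had a median of 0.022, with 38% below 0. The ribosomal protein median was -0.055 in FASD animals and -0.038 in controls, and 20 of 37 probe sets (54.1%) were lower at 2 years in both, as were 28.2% of all. The factors had a median of 0.0015, with 19 of 39 below 0. These are descriptions of the list, with no test. Without FASD animal 2 at 5 months the ribosomal protein median was -0.028. It was -0.041 with each array centred on its median, -0.046 with quantile normalization and -0.064 with centring on the top decile of intensity. Markers of immature and dividing cells also differed with age: 3 of 5 measured (DCX, SOX4 and SOX11) were called lower at 2 years by limma, and the mean of the 5 ranged from -0.36 to 0.27 in FASD animals and -0.30 to -0.13 in controls at 2 years, and from 0.11 to 0.24 in FASD animals and -0.05 to 0.33 in controls at 5 months. Of oligodendrocyte precursor markers 2 of 5 and of oligodendrocyte markers 2 of 4 were also called lower at 2 years. Their median age differences were -0.19 and -0.17. Over all probe sets 4.89% were called lower at 2 years. The oligodendrocyte median was -0.50 in FASD animals, with 3 of 4 called lower, and 0.03 in controls, with 1 of 4 called higher. The precursor mean ranged from -0.31 to 0.39 in FASD animals and -0.57 to 0.11 in controls at 2 years, and from 0.15 to 0.33 in FASD animals and -0.14 to 0.08 in controls at 5 months, and all 5 precursor markers had alcohol differences above 0. The part of these cells in the ribosomal protein shift was not tested.

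Few members were called for age averaged over both exposures. By limma, 0 of 37 ribosomal protein probe sets had an unadjusted p under 0.05 for age, where 9.57% of all probe sets did, and the two-way analysis of variance called 1, with 9.36% of all. Factors were called in 2 of 39 cases (5.13%), 1 lower and 1 higher at 2 years, beside 4.89% lower and 4.68% higher over all. After adjustment 0 members passed by limma, while 16 probe sets of the whole array did (0.139%). Without FASD animal 2 at 2 years, 3 of 37 ribosomal protein probe sets were called, where 10.5% of all were.

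**Figure D1:**
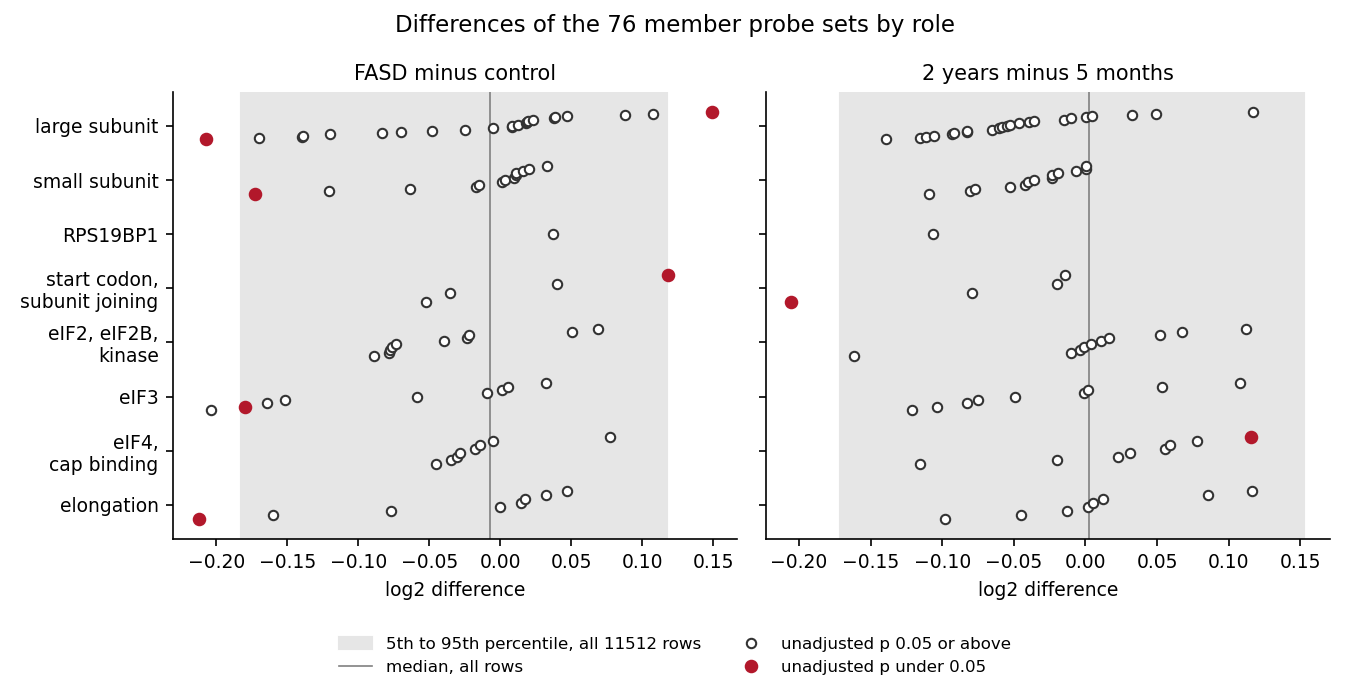
Log2 difference (x axis) of each of the 76 member probe sets, FASD minus control on the left and 2 years minus 5 months on the right, in lines by role; red points have an unadjusted p under 0.05 by limma and the grey band spans the 5th to 95th percentile of all 11512 probe sets. Most members lie inside the band, and ribosomal proteins lie mostly left of 0 for age (30 of 37) but not for alcohol (15 of 37).

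The mean level of the class varied between animals of the same group. Each probe set was expressed as its deviation from its own mean over the 22 animals, and the deviations were averaged over the 37 ribosomal protein probe sets. This mean was -0.03 ± 0.05 in FASD animals and -0.01 ± 0.05 in controls at 2 years, and 0.01 ± 0.07 in FASD animals and 0.03 ± 0.05 in controls at 5 months (SD, n = 5 and n = 6 at each age). The highest values were 0.14 in FASD animal 2 at 5 months and 0.12 in control animal 1 at 5 months, and the groups overlapped at both ages. For the factors the mean was -0.02 ± 0.03 in FASD animals and 0.01 ± 0.02 in controls at 2 years, and -0.02 ± 0.03 in FASD animals and 0.02 ± 0.03 in controls at 5 months (SD, same n).

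The same 2 animals had the highest means of the microglial markers, at 0.36 in FASD animal 2 and 0.30 in control animal 1. Of 11 listed microglial markers 8 were measured, and their mean ranged from -0.29 to 0.10 in FASD animals and -0.04 to 0.13 in controls at 2 years, and from -0.16 to 0.36 in FASD animals and -0.15 to 0.30 in controls at 5 months. The mean of 5 of 10 listed mural cell and fibroblast markers was 0.84 and 0.37 in these animals, and its other high values were 0.59 in FASD animal 6 and 0.42 in control animal 4 at 2 years. No listed blood marker was among the probe sets analysed (0 of 7). RMA gives no zeros, so absence of a marker cannot be read from it. Of neuronal markers, SYT1 and STMN2 lay at percentiles 99.6 and 99.4 of mean intensity, and of markers of pyramidal neurons NRGN and NEUROD6 at 93.2 and 87.2. The array of FASD animal 2 at 5 months also had the lowest mean log2 expression of the 22, at 7.899. Its mean deviation over top-decile probe sets outside the members was -0.13, against -0.03 to 0.05 in the other animals. The part of other cells, or of this array, in the ribosomal protein level was not tested. The mean of 4 of 11 listed oligodendrocyte markers was -0.10 (-0.37 to 0.07) in FASD animals at 2 years, against -0.04 (-0.31 to 0.21) in controls, and 0.27 (0.05 to 0.61) in FASD animals at 5 months, against -0.10 (-0.27 to 0.08) in controls. With FASD animal 2 and control animal 1 at 5 months left out, the age median of the ribosomal proteins was -0.023 and the alcohol median -0.012.

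**Figure D2:**
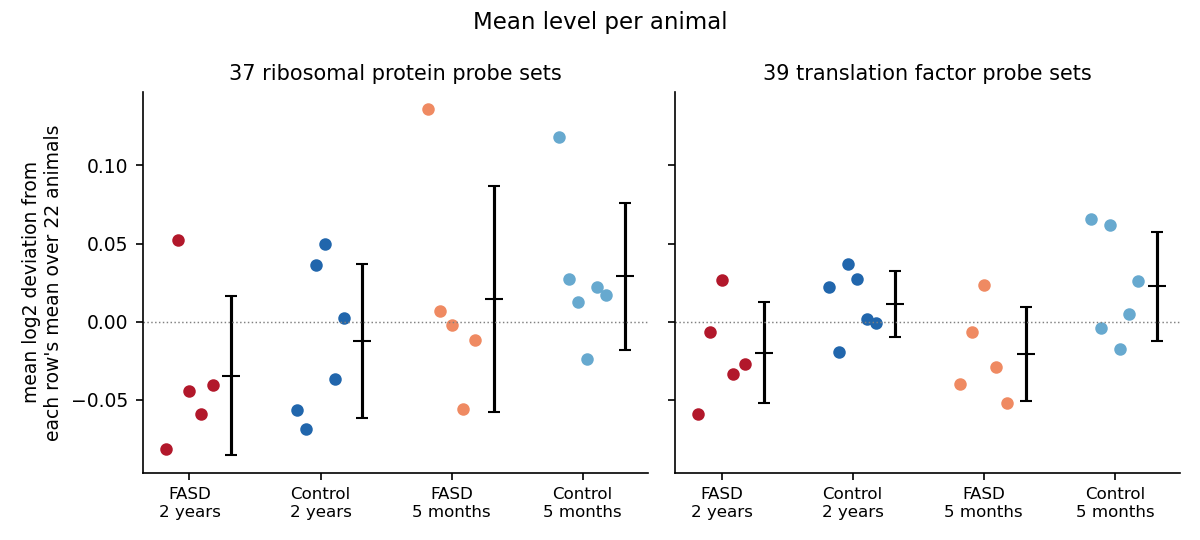
Mean log2 deviation per animal (y axis) of the ribosomal protein probe sets and of the factor probe sets, by group (x axis); points are animals, bars the group mean ± SD. FASD animal 2 and control animal 1 at 5 months are the 2 highest for ribosomal proteins, at 0.14 and 0.12, and the groups overlap throughout.

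Among small-subunit proteins, RPS3 was called for alcohol, but by 1 of its 2 probe sets. RPS3 lies near the mRNA entry of the small subunit and also acts in DNA repair. Its probe set of lower intensity gave 8.45, 8.36, 8.60, 8.64 and 8.57 in FASD animals at 2 years, against 8.39, 8.61 and 8.78 in controls (lowest, median and highest). The values at 5 months were 8.14, 8.64, 8.56, 8.40 and 8.51 in FASD animals, against 8.59, 8.68 and 8.85 in controls. At 5 months 4 of 5 FASD animals were below every control, while at 2 years 1 of 5 was. The log2 difference for alcohol was -0.17 (SE 0.06), with an unadjusted p of 0.00994 by limma and an adjusted p = 0.579. The brighter RPS3 probe set had a difference of 0.01 (SE 0.06), and it ranged from 11.95 to 12.38 in FASD animals and 12.17 to 12.37 in controls at 2 years.

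RPL9, a protein of the large subunit near the base of its stalk, was also called by 1 of its 2 probe sets. Its probe set of lower intensity gave 9.19, 9.37, 9.47, 9.57 and 9.72 in FASD animals at 2 years, against 9.42, 9.58 and 10.14 in controls. Values at 5 months were 9.61, 9.43, 9.63, 9.45 and 9.58 in FASD animals, against 9.54, 9.81 and 9.97 in controls. At each age 2 of 5 FASD animals were below every control and the rest overlapped. The log2 difference for alcohol was -0.21 (SE 0.08), with an unadjusted p of 0.0192 by limma and an adjusted p = 0.579. The brighter probe set, whose name marks it as one that can bind several transcripts, had a difference of 0.01 (SE 0.07).

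The 2 probe sets of 1 gene were compared directly within each animal. For RPL9 the difference between the dimmer and the brighter probe set was lower in FASD animals by 0.22 on the log2 scale (exact permutation test within age, two-sided, p = 0.0292), and for RPS3 by 0.18 (same exact test, p = 0.0710). Over 16 such tests of 8 pairs of probe sets, the Benjamini-Hochberg adjusted value of both was 0.379, so none passed. Within groups the 2 probe sets of RPL9 correlated at 0.30 across the 22 animals and those of RPS3 at -0.24. Those of RPS15 correlated at -0.15, of EIF4A2 at 0.21 and of EIF2S1 at 0.32, and the pairs among the 3 of EIF2S2 lay between -0.44 and -0.05.

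**Figure D3:**
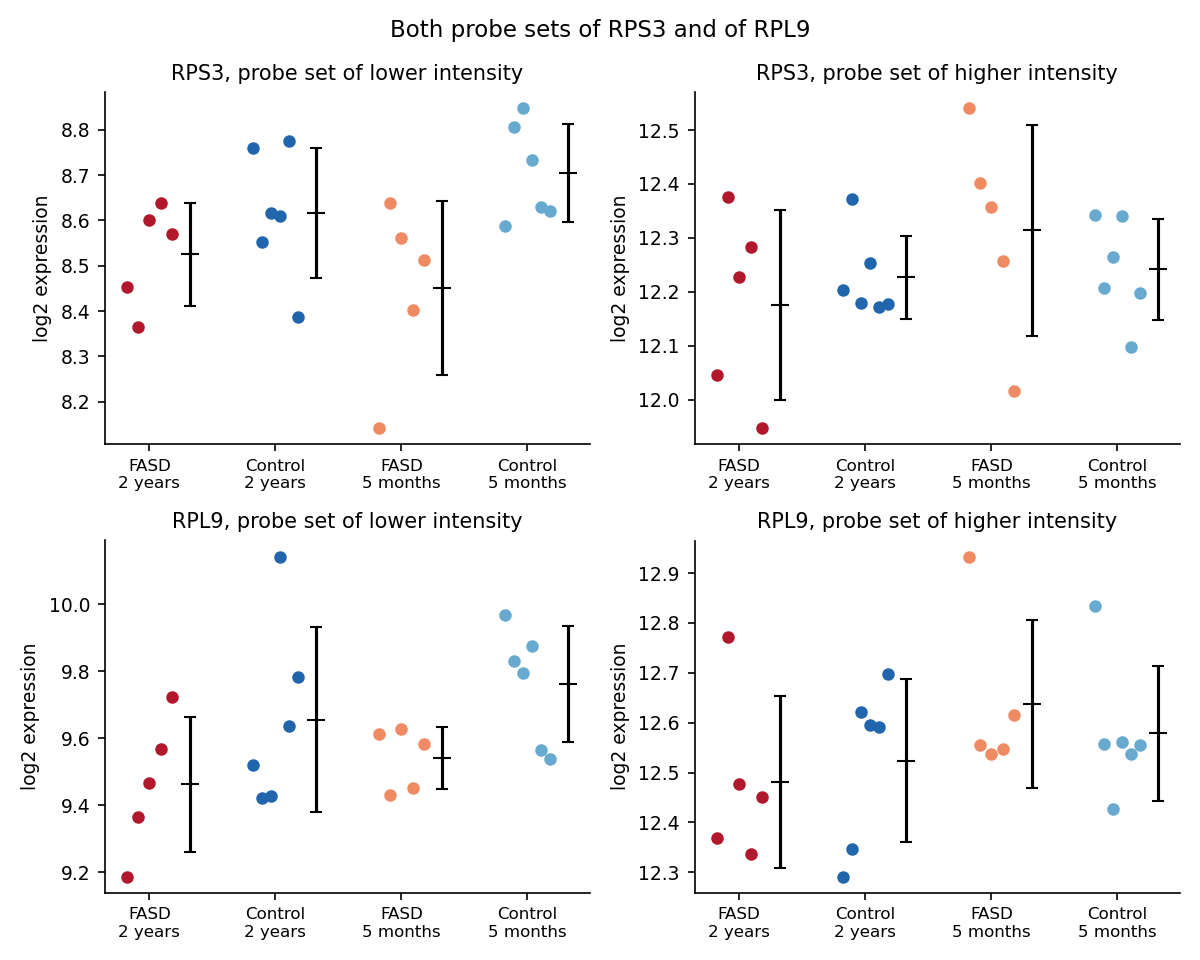
Log2 expression per animal (y axis) of both probe sets of RPS3 (top) and of RPL9 (bottom), the dimmer on the left, by group (x axis); points are animals, bars the group mean ± SD. The dimmer probe sets are lower in FASD animals on average (-0.17 for RPS3, -0.21 for RPL9) while the brighter ones differ by 0.01 each.

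RPL35A was the ribosomal protein called higher in FASD animals. It is a large-subunit protein that is mutated in some patients with Diamond-Blackfan anaemia, a failure of red cell production caused by ribosomal protein loss. It gave 13.61, 13.63, 13.60, 13.39 and 13.73 in FASD animals at 2 years, against 13.29, 13.42 and 13.68 in controls. At 5 months it gave 13.73, 13.64, 13.68, 13.74 and 13.73 in FASD animals, against 13.37, 13.52 and 13.91 in controls. At each age 4 of 5 FASD animals were above 5 of 6 controls, and the groups overlapped at both. The difference was 0.15 (SE 0.06), with an unadjusted p of 0.0249 by limma and an adjusted p = 0.579. It missed the unadjusted threshold without FASD animal 6 at 2 years (0.13). Next for alcohol by p were RPL32 at -0.12, RPL22 at -0.17 and RPS10 at -0.12, each with an unadjusted p above 0.05 (RPL22 is among the dimmest, at percentile 9.57 of the array).

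The lowest p for age among the ribosomal proteins was that of RPS26. RPS26, a small-subunit protein at the mRNA exit channel, differed by -0.11 (SE 0.05) between 2 years and 5 months, with an unadjusted p of 0.0563 by limma and an adjusted p = 0.546. RPL12, which sits at the base of the stalk where elongation factors bind, differed by -0.11, RPL35A by -0.12, RPLP1, a stalk protein, by -0.08, the brighter RPL9 probe set by -0.11 and RPL22 by 0.12. RPL12 ranged from 11.30 to 11.58 in FASD animals and 11.37 to 11.65 in controls at 2 years, and from 11.51 to 11.82 in FASD animals and 11.38 to 11.75 in controls at 5 months. Its age difference in FASD animals alone, -0.18, had an unadjusted p of 0.0472 by limma. It was the only ribosomal protein of 37 called there, where 6.99% of all probe sets were called, and the factor count was 2 of 39.

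RPL24 had the largest interaction among the members. It forms part of a bridge between the subunits. In FASD animals it gave 11.89, 11.57, 11.98, 11.98 and 11.68 at 2 years, against 11.30, 11.61 and 11.93 in controls. The values at 5 months were 11.47, 11.82, 11.89, 11.45 and 11.36 in FASD animals, against 11.46, 11.89 and 12.85 in controls. The wide range at 5 months came from control animals 2 and 3, at 12.76 and 12.85, whereas every other animal of the study was between 11.30 and 11.98. The FASD minus control difference was 0.22 at 2 years and -0.50 at 5 months, and the interaction was 0.73 (SE 0.28), with an unadjusted p of 0.0155 by limma and an adjusted p = 1.00. Without control animal 3 at 5 months the interaction was 0.58. It was not fitted without both of these control animals, so how much rests on them together is not shown. RPL24 was the only ribosomal protein called for the interaction (1 of 37), where 3.0% of all probe sets were called and 0% passed adjustment, and the factor count was 2 of 39. The two-way analysis of variance gave the same counts, 1 and 2, with 3.19% of all probe sets called and 0 after adjustment.

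Several large-subunit and small-subunit proteins serve as markers of regulation or have a close copy. RPS6, whose phosphorylation follows mTOR activity, gave 12.73, 12.83, 12.48, 12.44 and 12.64 in FASD animals at 2 years, against 12.50, 12.70 and 12.82 in controls. Values at 5 months were 13.02, 12.74, 12.56, 12.56 and 12.72 in FASD animals, against 12.50, 12.66 and 12.84 in controls, and the groups overlapped at both ages. Its alcohol difference was 0.0033 (SE 0.06) and its age difference -0.04 (SE 0.06). RPL26L1, a copy of RPL26, differed by -0.05 for alcohol and -0.04 for age, neither with an unadjusted p under 0.05. At 2 years 4 of 5 FASD animals were below every control and 1 was above, with values from 8.77 to 9.21 in FASD animals and 8.93 to 9.19 in controls.

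Initiation factors were called in a few single cases. EIF3A encodes the largest subunit of eIF3, the scaffold that holds the small subunit ready for mRNA. It gave 7.21, 7.32, 7.60, 7.59 and 7.55 in FASD animals at 2 years, against 7.47, 7.58 and 7.66 in controls. At 5 months it gave 7.22, 7.40, 7.63, 7.36 and 7.57 in FASD animals, against 7.44, 7.69 and 7.87 in controls. Below every control of their age were 2 of 5 FASD animals at 2 years and 3 of 5 at 5 months. The alcohol difference of EIF3A was -0.18 (SE 0.06), with an unadjusted p of 0.00849 by limma, the lowest of the 76, and an adjusted p = 0.579. Leaving out any 1 of the 22 animals kept it between -0.20 and -0.15.

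None of the other 8 eIF3 probe sets was called for alcohol over both ages. EIF3J, a loosely bound subunit, differed by -0.15 for alcohol with an unadjusted p of 0.0552 by limma, and EIF3I, a small regulatory subunit, by 0.01 for alcohol and 0.11 for age. Over the 9 eIF3 probe sets the alcohol differences ran from -0.20 to 0.03 with a median of -0.06, and 6 were below 0. EIF3L, a peripheral subunit, gave 8.77, 8.79, 8.98, 9.13 and 8.55 in FASD animals at 2 years, against 8.52, 9.31 and 9.57 in controls. All 5 FASD animals there were below 5 of 6 controls, but control animal 2 was the lowest of all at 8.52. The EIF3L difference at 2 years was -0.37 (SE 0.16), with an unadjusted p of 0.0261 by limma and an adjusted p = 0.793, and at 5 months it was 0.05.

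EIF5B, the GTPase that joins the large subunit to the small one at the start codon, had the lowest p for age among the members. It gave 9.66, 9.77, 9.94, 9.63 and 9.74 in FASD animals at 2 years, against 9.66, 9.95 and 10.14 in controls. The values at 5 months were 10.34, 9.93, 10.18, 9.99 and 10.03 in FASD animals, against 9.80, 9.95 and 10.24 in controls. Among FASD animals 4 of 5 at 2 years were below every animal at 5 months, while controls of the 2 ages overlapped almost wholly. The age difference was -0.21 (SE 0.07), with an unadjusted p of 0.00453 by limma and an adjusted p = 0.251. It was -0.34 in FASD animals and -0.07 in controls, and the interaction was -0.28 (SE 0.13), with an unadjusted p of 0.0433 by limma and an adjusted p = 1.00. The interaction lost the unadjusted threshold when any 1 of 14 of the 22 animals was left out, and was -0.22 without FASD animal 2 at 5 months.

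EIF1AD, a nuclear protein related to eIF1A, was the factor called higher for alcohol. It gave 8.33, 8.45, 8.49, 8.29 and 8.48 in FASD animals at 2 years, against 8.01, 8.22 and 8.49 in controls. Values at 5 months were 8.48, 8.25, 8.36, 8.30 and 8.38 in FASD animals, against 8.21, 8.31 and 8.38 in controls. At 2 years every FASD animal was above 5 of 6 controls, with control animal 2 as high as the highest FASD animal. The EIF1AD difference was 0.12 (SE 0.05), with an unadjusted p of 0.0291 by limma and an adjusted p = 0.580, and it was 0.10 without FASD animal 2 at 5 months, 1 of 5 animals without which it missed the unadjusted threshold (the others were control animals 4 and 6 and FASD animals 3 and 6 at 2 years). EIF6, which keeps free large subunits from joining too early, differed by 0.04 for alcohol and -0.08 for age, with SEs of 0.08.

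The factors of the integrated stress response, in which kinases phosphorylate eIF2 and so block its exchange factor eIF2B, were measured in part. EIF2AK3, the kinase PERK of the endoplasmic reticulum, gave 5.42, 5.52, 5.48, 5.70 and 5.61 in FASD animals at 2 years, against 5.51, 5.73 and 5.94 in controls. At 5 months it gave 5.65, 5.74, 5.49, 5.57 and 5.88 in FASD animals, against 5.55, 5.62 and 5.71 in controls. At 2 years 2 of 5 FASD animals were below every control, and at 5 months 2 were above and 1 below all controls. Its differences were -0.20 at 2 years and 0.04 at 5 months, and the interaction was -0.24 (SE 0.11), with an unadjusted p of 0.0395 by limma and an adjusted p = 1.00. It lost the unadjusted threshold when any 1 of 10 of the 22 animals was left out, with -0.18 without FASD animal 6 at 5 months. The intensity of this probe set is low, at 5.65 on average, which places it at percentile 11.4 of the array.

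The substrate and its exchange factor differed by less. EIF2S1, the eIF2 subunit that carries the phosphorylation site, differed by -0.04 and -0.02 for alcohol in its 2 probe sets and by -0.01 and 0.07 for age, with SEs of 0.04 and 0.06. EIF2B5, the catalytic subunit of eIF2B, differed by 0.07 for alcohol and 0.0036 for age, and EIF2B1, a regulatory subunit, by -0.07 for alcohol and 0.11 for age. None of these had an unadjusted p under 0.05. EIF2S2, another eIF2 subunit, had 3 probe sets, and only the dimmest was called, for age in controls, at -0.31 with an unadjusted p of 0.0247 by limma.

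Of the cap-binding group, EIF4A2 was called for age by its dimmer probe set. EIF4A2 is the RNA helicase form that is abundant in brain. The probe set gave 11.06, 11.05, 11.05, 10.94 and 11.10 in FASD animals at 2 years, against 10.82, 11.003 and 11.05 in controls. The values at 5 months were 10.71, 10.93, 10.97, 10.84 and 10.86 in FASD animals, against 10.85, 10.93 and 11.02 in controls. Among FASD animals 4 of 5 at 2 years were above every animal at 5 months. The age difference was 0.12 (SE 0.04), with an unadjusted p of 0.00938 by limma and an adjusted p = 0.314, and that of the brighter EIF4A2 probe set was 0.06 (SE 0.05).

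No other probe set of the cap-binding group was called for alcohol or age averaged over the groups. EIF4E, the protein that binds the cap, differed by -0.03 for alcohol and -0.12 for age, with SEs of 0.09. EIF4ENIF1, which carries eIF4E into the nucleus, differed by 0.08 for alcohol with an unadjusted p of 0.0839 by limma, and by 0.14 at 2 years alone with an unadjusted p of 0.0352. The 8 probe sets of the group had alcohol differences from -0.05 to 0.08 with a median of -0.02.

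Of the elongation group, a modifying enzyme was called, and EEF1A1 and EEF1A2 were not. EEF1A1, the elongation factor of most cells, which on this array is also one of the manufacturer's control probe sets, ranged from 13.60 to 13.84 over the 22 animals and differed by less than 0.01 for alcohol and for age. EEF1A2, the form of neurons and muscle, differed by 0.05 for alcohol and -0.04 for age (SE 0.06 each). EEF1AKMT2, an enzyme that methylates eEF1A, gave 6.36, 6.61, 6.64, 6.74 and 6.79 in FASD animals at 2 years, against 6.57, 6.85 and 7.14 in controls. Values at 5 months were 7.06, 6.59, 6.68, 6.58 and 6.85 in FASD animals, against 6.77, 6.96 and 7.08 in controls. At 5 months 3 of 5 FASD animals were below every control, with FASD animal 2 near the top of the controls. The EEF1AKMT2 difference was -0.21 (SE 0.07), with an unadjusted p of 0.00962 by limma and an adjusted p = 0.579. EIF5A, which helps the ribosome through difficult peptide bonds, differed by 0.02 for alcohol and 0.12 for age with SEs of 0.11.

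**Figure D4:**
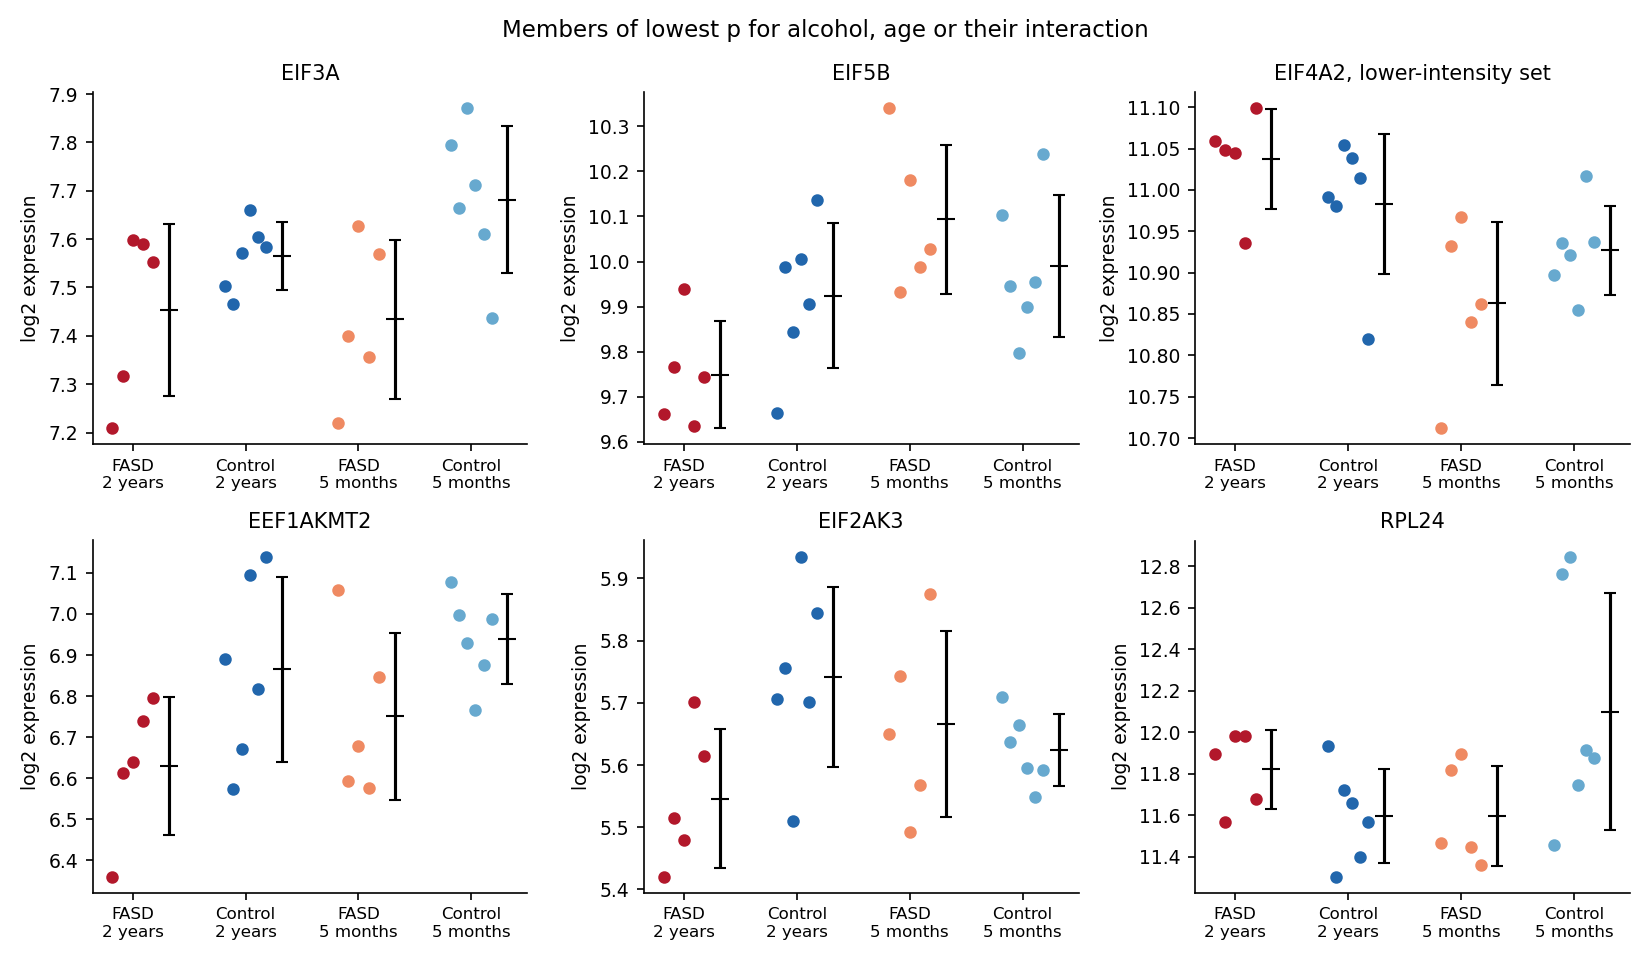
Log2 expression per animal (y axis, a scale for each panel) of 6 members by group (x axis); points are animals, bars the group mean ± SD. Among FASD animals 4 of 5 at 2 years lie below all at 5 months for EIF5B and above all for EIF4A2, and the RPL24 panel shows control animals 2 and 3 at 5 months at 12.76 and 12.85, above all others.

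Alcohol was also compared within single ages. At 2 years 5 of 39 factors (12.8%) and 1 of 37 ribosomal proteins were called at an unadjusted p under 0.05 by limma, where 6.05% of all probe sets were. The factors were EIF3L, EIF2AK3 and EEF1AKMT2, lower in FASD animals, and EIF1AD and EIF4ENIF1, higher, and the ribosomal protein was RPS10 at -0.20. At 5 months 2 of 39 factors (EIF3A and EIF2D) and 2 of 37 ribosomal proteins (RPS3 and RPL24) were called, all lower in FASD animals, where 4.83% of all were. No member was called at both ages, and the share of all probe sets called at both was not counted. A call at 1 age alone does not show a difference between the ages. EEF1AKMT2, called at 2 years only, differed by -0.24 there and -0.19 at 5 months, and EIF3L, also called at 2 years only, by -0.37 and 0.05. Only RPL24, EIF5B and EIF2AK3 were called for the interaction, the test of a difference between the ages. For age in controls alone 1 of 37 (RPL24) and 1 of 39 (EIF2S2) were called, where 5.55% of all were. In no member were all FASD animals above or all below every control of their age, at 2 years (0.313% of all probe sets) or at 5 months (0.443%).

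Genes that serve the ribosome without belonging to it were read from lists. Of 54 listed genes of ribosome assembly and the nucleolus, 30 were measured by 32 probe sets, and 6 of the 32 had an unadjusted p under 0.05 for alcohol by limma, all lower in FASD animals, where 8.44% of all probe sets were called and 6.01% were called lower. The lowest p values were those of RRN3, which recruits RNA polymerase I to ribosomal RNA genes, at -0.25 (SE 0.07) in its brighter probe set and -0.11 in its dimmer one, GNL3, the nucleolar GTPase nucleostemin, at -0.16 (SE 0.06), and RIOK2, a kinase of late small-subunit maturation, at -0.29 (SE 0.11). For the brighter RRN3 probe set, GNL3 and RIOK2 the unadjusted p values by limma were 0.00281, 0.00875 and 0.0197, each with an adjusted p = 0.579. The median over the 32 probe sets was -0.05, with 22 below 0 (53.2% of all probe sets were), and no set test was made. For age 2 were called lower at 2 years, FBL (fibrillarin, which methylates ribosomal RNA) at -0.15 and NOC2L at -0.14, and 2 higher, POLR1D at 0.13 and DKC1 at 0.09, where 4.89% of all probe sets were called lower and 4.68% higher.

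Regulators bound to mRNA were called in part. Of 23 listed, 11 were measured, and FMR1, whose protein represses translation at synapses, was lower in FASD animals by 0.23 (SE 0.07), with an unadjusted p of 0.00472 by limma and an adjusted p = 0.579. PAIP2, an inhibitor of the poly(A)-binding protein, differed by -0.11 for alcohol with an unadjusted p of 0.0497. For age LARP1, which binds the mRNAs of ribosomal proteins under control of mTOR, differed by 0.20 (SE 0.07) and CPEB1 by 0.22, while YBX1 differed by -0.16 and FMR1 by -0.16. Each of the 4 had an unadjusted p under 0.05 by limma and none passed adjustment, with the lowest adjusted p = 0.290 for LARP1. The list thus had 2 of 11 probe sets called for alcohol, where 8.44% of all were, and 4 of 11 for age, where 9.57% of all were.

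The signalling lists gave few calls. Of 30 listed genes of the mTOR and ribosomal S6 kinase pathway 22 were measured, and the lowest unadjusted p by limma was 0.0863 for alcohol and 0.0959 for age, with medians of 0.0079 and 0.019 over the 22. Of 11 listed genes of the integrated stress response 7 were measured. IMPACT, a neuronal inhibitor of the kinase GCN2, differed by -0.16 for alcohol (unadjusted p of 0.0113 by limma), and ASNS, asparagine synthetase, by 0.20 for age (unadjusted p of 0.0274). Over 14 probe sets of aminoacyl-tRNA synthetases the lowest unadjusted p by limma was 0.0564 for alcohol and 0.0548 for age. Of 3 measured genes of termination, ETF1, the release factor, differed by -0.11 for alcohol with an unadjusted p of 0.0310.

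The ribosomal proteins varied together between animals of the same group. After group means were removed, the median correlation over the 666 pairs of ribosomal protein probe sets was 0.197 across the 22 animals, against 0.0176 over all pairs of probe sets on the array, 0.00996 within the factors and -0.0124 between ribosomal proteins and factors. Within single groups of factors the median was 0.173 for eIF3, 0.143 for cap binding, 0.0997 for the eIF2 group and -0.148 for elongation. In the top decile of intensity it was 0.340 for the 27 ribosomal protein probe sets and 0.0498 for the 1118 others. These probe sets share the array and the tissue piece of each animal, so the correlations are given as a description, without a test. FASD animal 2 and control animal 1 at 5 months lay farthest from the median of the ribosomal protein mean. Without these 2 animals the values in the top decile were 0.198 for ribosomal proteins and 0.0357 for the others. Over all ribosomal protein pairs the median was then 0.115. Within eIF3 it was 0.136, within cap binding 0.0039, within the eIF2 group 0.063 and within elongation -0.144.

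Not all ribosomal proteins joined in. Each was correlated with the mean of the other ribosomal protein probe sets, and 30 of 37 were above 0. The share of all probe sets above 0 was not counted, so this count cannot be set against the array. RPL36AL had the highest Pearson correlation, 0.868 (Spearman 0.775), followed by the brighter RPL9 probe set at 0.842 and RPS7 at 0.786. RPL7L1 had the lowest at -0.682 (Spearman -0.521). It is named for its likeness to RPL7 and acts in ribosome assembly, and the dimmer RPS3 probe set followed at -0.593, RPL4 at -0.426, RPL19 at -0.418 and RPL24 at -0.351. Without the same 2 animals these values were 0.793 for RPL36AL, 0.741 for RPL9, 0.702 for RPS7, -0.508 for RPL7L1 and -0.355 for RPS3. For RPL9 and RPS3 the dimmer probe sets, which were called for alcohol, thus followed the other ribosomal proteins less (0.259 and -0.593) than the brighter ones did (0.842 and 0.354).

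The same measure was taken for the factors, with no test between groups of them and no count over all probe sets beside it. Of 9 eIF3 probe sets 6 correlated with the ribosomal protein mean above 0.3, namely EIF3F at 0.647, EIF3M at 0.631, EIF3H at 0.567, EIF3J at 0.534, EIF3L at 0.392 and EIF3E at 0.370, while EIF3A, EIF3D and EIF3I lay between -0.07 and 0. EIF1, which guards start-codon choice, was at 0.570 and EEF1AKMT2 at 0.580. The 8 probe sets of the cap-binding group also include those of EIF4A2, EIF4G2, EIF4G3 and EIF4ENIF1. Of the 8, 7 were below 0, with EIF4E3, a relative of eIF4E, lowest at -0.606. Of 10 probe sets grouped with eIF2, eIF2B and their kinase, EIF2D among them, 8 were below 0. Without the 2 animals 4 of 9 eIF3 probe sets were above 0.3 (all 9 above 0), 7 of 8 cap-binding probe sets were below 0, and 6 of 10 of the eIF2 group were below 0. The median was then 0.289 for eIF3, -0.196 for cap binding and -0.0249 for the eIF2 group, against 0.392, -0.257 and -0.299 with them.

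The ribosomal protein mean itself correlated with the mean of the 8 microglial markers at 0.687 across the 22 animals (Spearman 0.468) and with that of the 4 oligodendrocyte markers at 0.593 (Spearman 0.545), again with group means removed. Without the 2 animals the Pearson correlations were 0.396 and 0.364, and the part of these cells in the ribosomal protein level was not tested. Of the other cell type lists, inhibitory neuron markers correlated with it at 0.473, mural cell and fibroblast markers at 0.462, astrocyte markers at 0.439 and endothelial markers at -0.415. These were 0.353, 0.0577, 0.342 and -0.299 without the 2 animals. Pyramidal and granule neuron markers were at -0.364 (-0.219 without them) and neuron markers at -0.189 (-0.266). Ependyma and choroid plexus markers were at -0.217 (-0.034), precursor markers at -0.086 (-0.130) and immature and dividing cell markers at 0.098 (0.052). Of the pathway lists, the poly(A) tail and mRNA-bound regulators correlated with it at -0.469, the integrated stress response at -0.443, termination at 0.407, the mTOR list at -0.340 and ribosome assembly at 0.195, and these were -0.193, -0.304, 0.446, -0.352 and 0.222 without them.

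**Figure D5:**
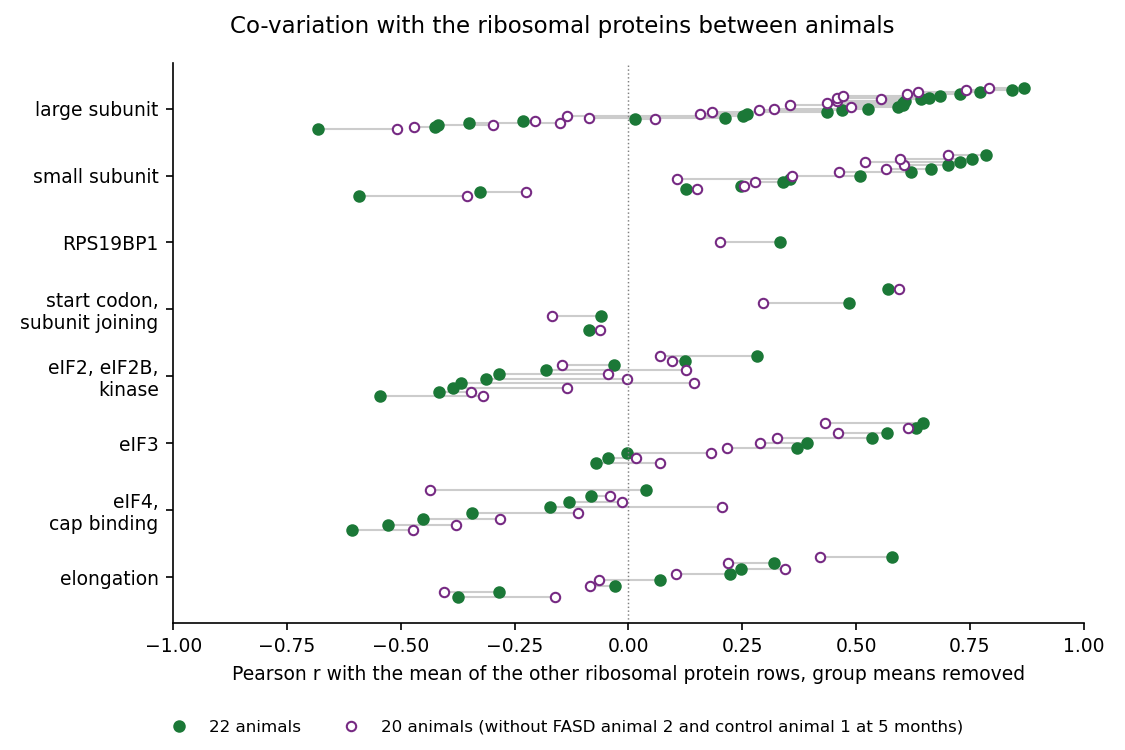
Pearson correlation (x axis) of each member probe set with the mean of the other ribosomal protein probe sets, group means removed, in lines by role; filled points use 22 animals and open points leave out FASD animal 2 and control animal 1 at 5 months. Most ribosomal proteins (30 of 37) and 6 of 9 eIF3 probe sets lie right of 0, and 7 of 8 of the cap-binding group left of it. These shares were not counted over all probe sets.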

How the data were processed

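Values on the log2 scale were deposited, 1 per probe set and array. The authors obtained them by RMA, a method that subtracts background, gives every array the same distribution and combines the probes of each set, so that a change common to most genes is lost (RMA version: not given in the sources used here). Rhesus probes were hybridized with vervet RNA. The authors discarded 2 FASD arrays, whose 2 columns hold no values and were not used. The discarded array of the younger age is titled replicate 2, as is the array used here as FASD animal 2 of that age. The paper numbers that discarded array 1, so the labels conflict. All 11512 probe sets were used with no further filter or scaling, although the methods describe 1 probe set per gene, and 6 member symbols had several. Symbols came from the platform annotation, which gives 8730 probe sets 1 symbol, 88 several and 2694 none.

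Each probe set was fitted with limma 3.58.1 (R 4.3.3) as 4 group means. P values were moderated and adjusted by Benjamini-Hochberg over all probe sets. Alcohol differences (FASD minus control) are the average of those at the 2 ages, age differences (2 years minus 5 months) the average of those in FASD animals and in controls, and interactions subtract the alcohol difference at 5 months from the one at 2 years. Replicates are separate animals, and their number limits the precision. Pairs of probe sets were compared by exact permutation of animals within age (alcohol) or exposure (age). Figures used matplotlib 3.10.9 in Python 3.11.15, and steps were tested on simulated data.

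Members and gene lists were chosen with earlier results of these data known. Named genes were, for ribosomal proteins and factors apart, the 6 of lowest p for alcohol, the 6 for age and the 3 for the interaction, with role anchors such as EIF2S1 or RPS6 where measured (10 of 29) and up to 3 genes of lowest p per list. Values outside this rule, among them those of the correlations and of single ages, were named after they were seen. Alternatives were robust variances with an intensity trend, the two-way analysis of variance of the methods, centring, quantile normalization, array weights, 1 probe set per symbol, probe sets above the median intensity, a replicate block and leaving out each animal. No sequences were used here.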

Additional observations from a re-analysis of the deposited data

Results flagged for a closer look

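Each named probe set and both class means were examined in each group for an animal far from the rest by Dixon's criterion. It was met in 12 of 152 groups, and chance alone flags about 1 in 20 groups. Of the ribosomal proteins, RPS26 was 12.58 in control animal 4 at 5 months, with the other controls at 12.36 to 12.43, and RPL26L1 was 8.77 in the same animal, against 8.98 to 9.10. The brighter RPL9 probe set was 12.93 in FASD animal 2 at 5 months, against 12.54 to 12.62, and 12.83 in control animal 1 at 5 months, against 12.43 to 12.56. The mean over ribosomal protein probe sets was 11.10 in that control, with the other controls at 10.96 to 11.01.

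Of the factors, EIF2B1 was 8.28 in FASD animal 2 at 5 months, against 8.62 to 8.75. EIF4A2 (dimmer probe set) was 10.82 in control animal 6 at 2 years, against 10.98 to 11.05, and EIF3L was 8.52 in control animal 2 at 2 years, against 9.20 to 9.57. The dimmer EIF2S1 probe set was 8.47 in FASD animal 4 at 2 years, against 8.66 to 8.71. The dimmest EIF2S2 probe set had 3, namely 7.30 in FASD animal 1 at 2 years (others 7.41 to 7.44), 6.79 in control animal 5 at 2 years (others 7.31 to 7.61) and 6.89 in FASD animal 4 at 5 months (others 7.46 to 7.62).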

How the results depend on the processing

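Among members named for their p for alcohol, age or the interaction, no difference with an unadjusted p under 0.05 changed sign under any alternative. Genes named from lists, and differences at single ages or in single exposures, were not run under the alternatives. The ribosomal protein median for alcohol lay on either side of 0, from -0.034 with array weights to 0.035 with top-decile centring, and the factor median for alcohol between -0.04 and -0.0021. The number of ribosomal proteins at an unadjusted p under 0.05 for alcohol, 3 as reported, was 7 with array weights and 1 with 1 probe set per symbol, and that of factors, also 3, was 8 with array weights and 1 among probe sets above the median intensity. For age, 0 ribosomal proteins became 1 by the two-way analysis of variance, 1 with the intensity trend and 3 with array weights, and 2 factors became 1 with 1 probe set per symbol. For the interaction, 1 ribosomal protein became 2 with array weights, and 2 factors became 1 above the median intensity. Leaving out 1 animal at a time gave 3 to 7 ribosomal proteins and 2 to 8 factors for alcohol (highest without control animal 2 at 2 years), 0 to 3 and 2 to 4 for age (highest without FASD animal 2 at 2 years), and 1 to 2 and 0 to 4 for the interaction (4 without control animal 2 at 2 years). The cause of these moves was not tested. With array weights 14.5% of all probe sets were called for alcohol, 14.1% for age and 6.29% for the interaction.

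Deviations of same-numbered animals of different groups correlated at 0.0706 on average over 30 pairs (-0.33 to 0.389), against -0.0107 over 151 other pairs. These pairs mix the 2 ages, so they cannot show whether FASD animals and controls of 1 age were paired. The methods describe cases and controls matched by age and killed in alternation, and such a pairing was not tested. With a replicate block, 1 ribosomal protein was called for age and 1 factor for the interaction. Another 2 settings were chosen after seeing the data. Centring on the top decile of intensity gave 1 ribosomal protein for age. Leaving out both arrays of highest microglial mean gave 1 for age, 2 for the interaction and 1 factor for the interaction.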
